A study of Mus musculus with 16 samples.

Results

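Transcripts of 8 regulators of G protein signaling, Rgs1, Rgs2, Rgs3, Rgs10, Rgs14, Rgs16, Rgs18 and Rgs19, were followed in follicular (FO) and marginal zone (MZ) splenic B cells of WT and Gtf2i cKO mice. The genes were chosen by symbol from the 27928 genes of the RNA-seq table, and 7 of them passed the filter on low values that left 14761 genes for testing (a mean of at least 10 normalized counts). Rgs16 did not pass. Regulators of G protein signaling are proteins with an RGS domain that speeds GTP hydrolysis by G alpha subunits, which shortens signaling from G protein-coupled receptors such as those for chemokines and sphingosine 1-phosphate. In B cells these receptors steer entry into follicles, retention in the marginal zone and shuttling between both sites, and several RGS proteins are known to dampen chemokine-driven migration of lymphocytes.

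RNA-seq was made from FACS sorted splenic B cells of young adult mice, with FO cells taken as CD21lo CD23hi and MZ cells as CD21hi CD23lo. WT mice were C57BL/6, and cKO mice, of the same labelled strain, carried Gtf2i fl/fl with deletion directed to B cells. Each of the 4 groups (WT FO, WT MZ, cKO FO and cKO MZ) had 2 libraries. By the study's methods the WT mice did not carry the floxed allele or the other alleles of the cKO, so the effect of losing Gtf2i and that of the alleles themselves cannot be told apart. No source used here says how many mice gave each library or whether the 2 libraries of a group came from different mice, so p-values measure the spread between these libraries, which may be partly technical.

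The libraries held between 21546552 and 25083552 reads on genes. All 3 FO markers and all 7 MZ markers tested differed as their labels state in both genotypes, and Cr2, which encodes the CD21 used in the sort, stood in FO at 28.7% of its MZ level in WT and 26.2% in cKO. The targeted gene, Gtf2i, ran from 1992 to 2864 normalized counts in WT and from 1523 to 1889 in cKO. The genotypes also differed in sex-linked transcripts: Xist was at 25930 normalized counts or more in WT and at most 89.7 in 3 of the cKO libraries, with 14748 in cKO FO replicate 1, whereas the Y-linked Ddx3y was at most 6.34 in WT and at least 2682 in cKO. The library of cKO FO replicate 1 thus held both transcripts, and without it the same 4 members were called between FO and MZ in cKO as with it. By Xist, at 67.4 in cKO FO replicate 2, the 2 cKO FO libraries did not hold the same mix of RNA. What part sex has in any difference between genotypes cannot be told apart from the genotype here.

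Rgs10 differed most between FO and MZ among these genes. Rgs10 is a small RGS protein with little beyond its RGS domain and acts on the Gi class of G alpha subunits, the class used by chemokine receptors. Its WT libraries read 50.9 and 59.9 normalized counts in FO and 1512 and 1519.7 in MZ. The cKO libraries read 41.4 and 54.4 in FO and 1221 and 1333 in MZ. Every MZ library lay far above every FO library, and the groups did not overlap in either genotype. The mean was 55.4 ± 6.39 (SD, n = 2) in WT FO against 1516 ± 5.34 (SD, n = 2) in WT MZ, a ratio of 27.4, and 47.9 ± 9.14 (SD, n = 2) against 1277 ± 79.4 (SD, n = 2) in cKO, a ratio of 26.7. On the log2(normalized count + 1) scale the fitted FO minus MZ difference was -4.75 in WT (SE 0.173, 95% interval -5.15 to -4.35, limma adjusted p = 9.81e-06) and -4.72 in cKO (95% interval -5.12 to -4.32, limma adjusted p = 9.67e-06). By p-value Rgs10 was number 9 of the 14761 genes tested in WT and also number 9 in cKO.

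The FO values of Rgs10 rest on few reads, 51 and 63 in WT and 37 and 54 in cKO, against 1570 and 1678 and 1225 and 1293 in the MZ libraries. The FO level was 3.66% of the MZ level in WT and 3.75% in cKO. Of the 7 MZ markers, S1pr3 stood at 3.20% and 2.45% in the same 2 genotypes, Cd9 at 5.88% and 5.48%, and the others between 12.8% and 28.7%. The part of MZ cells caught in the FO sort in these values was not tested, and in bulk libraries fewer cells that express a gene and less RNA per cell cannot be told apart. Markers of NK cells summed in WT to 152 and 351 normalized counts for FO and 463 and 511 for MZ, and in cKO to 151 and 89.6 against 559 and 391. Those of dendritic cells summed in WT to 212 and 306 for FO and 311 and 462 for MZ, and in cKO to 250 and 264 against 511 and 437. Of the 5 NK markers Prf1 alone was called, higher in MZ in both genotypes, and the median FO minus MZ value over the 5 was 0.62 in WT and -0.52 in cKO. Of the 6 dendritic cell markers tested 0 were called in WT, and in cKO Flt3 was called higher in MZ and Cd209a higher in FO. Both sums were higher in MZ without overlap, that of NK markers through Prf1, and in each MZ library each was lower than the value of Rgs10 alone. Macrophage and monocyte markers summed to 390.1 and 1775 in WT MZ and 1818 and 953 in cKO MZ. That sum was above Rgs10 in WT MZ replicate 2 and cKO MZ replicate 1. In FO it was 599 and 1326 in WT and 1023 and 605 in cKO, which overlapped MZ. Of its 9 tested markers 0 were called in either genotype. The part of these cell types in the Rgs10 values was not tested.

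Rgs3 was the other member called higher in MZ in both genotypes, a call being a limma adjusted p no higher than 0.05 together with a difference of 1.5-fold or more. Rgs3 acts on Gi and Gq class subunits and is made in several isoforms, with 17 transcripts in the annotation. In WT its normalized counts were 362 and 335 for FO and 855 and 888 for MZ. In the cKO they were 342 and 253 in FO and 744 and 668 in MZ. All 4 MZ libraries lay above all 4 FO libraries. The FO minus MZ difference was -1.32 on the log2 scale in WT (SE 0.158, 95% interval -1.69 to -0.95, limma adjusted p = 0.00162), or 2.50-fold. In cKO it was -1.26 (95% interval -1.63 to -0.89, limma adjusted p = 0.00173), or 2.39-fold.

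**Figure D1:**
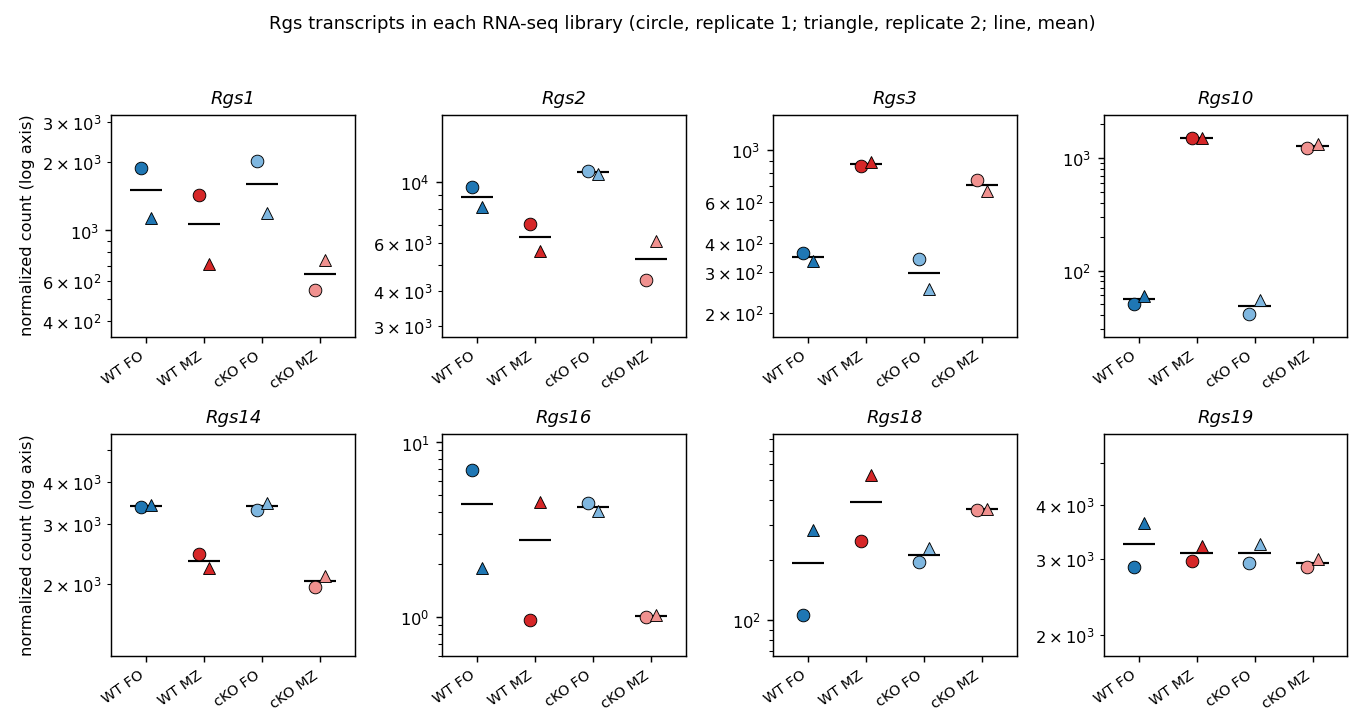
Normalized counts of the 8 genes in each library, on a log axis that differs between panels; circles are replicate 1, triangles replicate 2 and lines the mean of each group. Rgs10 and Rgs3 sit higher in all 4 MZ libraries, Rgs2 and Rgs14 higher in the FO libraries of each genotype, and the Rgs1 replicates lie apart within a group.

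The stretches upstream of the start sites are shown for the members called in at least 1 comparison for which RefSeq (GRCm38.p6) gave an entry. They are Rgs10, Rgs3 with both of its listed starts, and Rgs2, and each run holds the 250 bases before the start. Entries were found for 5 of the 8 members, and the others, Rgs1, Rgs14 and Rgs18, are named only. Capitals mark matches on either strand to CACGTG (the E-box core), TGACG (the core of a cyclic AMP response element), GGGCGG (the GC box), TATAAA and TGGGAA (the core read by Rbpj, the Notch partner).
Rgs10, chr7:128418173-128418422, minus strand: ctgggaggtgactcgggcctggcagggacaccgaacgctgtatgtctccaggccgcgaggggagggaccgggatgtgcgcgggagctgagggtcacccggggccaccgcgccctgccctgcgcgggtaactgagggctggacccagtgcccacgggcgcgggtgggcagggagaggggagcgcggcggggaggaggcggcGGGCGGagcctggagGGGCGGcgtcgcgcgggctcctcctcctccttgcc
Rgs3, upstream start, chr4:62559597-62559846, plus strand: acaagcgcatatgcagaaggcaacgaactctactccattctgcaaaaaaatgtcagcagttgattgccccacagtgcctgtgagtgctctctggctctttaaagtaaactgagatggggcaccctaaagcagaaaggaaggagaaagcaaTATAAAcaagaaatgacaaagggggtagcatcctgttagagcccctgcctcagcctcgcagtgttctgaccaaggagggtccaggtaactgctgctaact
Rgs3, downstream start, chr4:62619422-62619671, plus strand: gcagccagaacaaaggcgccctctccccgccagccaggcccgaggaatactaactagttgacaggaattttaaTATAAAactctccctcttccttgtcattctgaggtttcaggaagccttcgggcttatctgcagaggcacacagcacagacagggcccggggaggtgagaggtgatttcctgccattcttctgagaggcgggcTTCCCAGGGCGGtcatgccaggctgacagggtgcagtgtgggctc
Rgs2, chr1:144004150-144004399, minus strand: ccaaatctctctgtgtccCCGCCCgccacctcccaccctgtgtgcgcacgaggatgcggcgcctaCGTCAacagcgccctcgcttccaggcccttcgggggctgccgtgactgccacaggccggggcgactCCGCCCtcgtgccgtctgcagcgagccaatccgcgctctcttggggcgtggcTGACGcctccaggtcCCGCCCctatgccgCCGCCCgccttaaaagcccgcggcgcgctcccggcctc

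The stretch of Rgs10 had 76.4% G and C, against a median of 52.4% over the 32851 promoters of the table, and held 2 GC boxes, whose first bases lay 50 and 35 bases before the start. Neither start of Rgs3 lay in such a GC-rich stretch, with 48.4% and 56.8%. TATAAA lay 100 bases before the upstream start of Rgs3 and 177 bases before the downstream one, and the latter also held TGGGAA directly beside a GC box. The stretch of Rgs2 had 72.4% G and C, 4 GC boxes and 2 TGACG matches, which began 185 and 67 bases before the start. Of all promoters in the table, 32.7% held GGGCGG, 17.8% TGACG, 12.4% TATAAA, 21.6% TGGGAA and 6.02% CACGTG. These matches describe the letters in the windows and were not tied to any binding in these data.

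Rgs2 and Rgs14 were called higher in FO in cKO, and their FO values also lay above those of MZ in WT. Rgs2 acts mainly on the Gq class, is induced in lymphocytes by stimulation, and had the highest mean level per kb of exon among the members in every group. In WT its normalized counts were 9603 and 8108 for FO and 7006 and 5632 for MZ. The cKO libraries gave 10971 and 10731 for FO and 4386 and 6116 for MZ. FO lay above MZ without overlap in both genotypes. The difference was 1.07 on the log2 scale in cKO (SE 0.175, 95% interval 0.66 to 1.47, limma adjusted p = 0.00538), or 2.09-fold, and was called. In WT it was 0.49 (95% interval 0.08 to 0.90, limma adjusted p = 0.101), or 1.4-fold, and was not called. This did not show that the genotypes differed: the interaction, which is the FO minus MZ difference in cKO less that in WT, was 0.58 for Rgs2 (95% interval 0.0023 to 1.15, limma unadjusted p = 0.0493, adjusted p = 1).

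Rgs14 joins an RGS domain with Ras-binding domains and a GoLoco motif that holds inactive Gi subunits. Its replicates lay close together in every group, at 3371 and 3414 normalized counts for FO against 2450.2 and 2228 for MZ in WT, and 3312 and 3479 against 1955 and 2109 in cKO. Again FO lay above MZ without overlap in both genotypes. In cKO the difference was 0.74 (SE 0.0869, 95% interval 0.54 to 0.94, limma adjusted p = 0.0013), or 1.67-fold, and it was called. For WT it was 0.54 (95% interval 0.34 to 0.74, limma adjusted p = 0.00589), so the adjusted p passed while the 1.45-fold difference fell short of the 1.5-fold limit. Without WT MZ replicate 1 the WT difference was 0.61 and was called. The interaction for Rgs14 was 0.20 (95% interval -0.08 to 0.49, limma adjusted p = 1).

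Rgs1 had large spread between replicates. Rgs1 dampens Gi signaling from chemokine receptors in B cells and is itself induced by activation. In WT its normalized counts were 1877 and 1139 for FO and 1431 and 714 for MZ, and the groups overlapped. In cKO the FO libraries held 2022 and 1195 and the MZ libraries 545 and 744, with no overlap. The FO minus MZ difference was 0.53 in WT (95% interval -0.39 to 1.45, limma adjusted p = 0.423) and 1.29 in cKO (95% interval 0.37 to 2.21, limma adjusted p = 0.0588), and neither was called. The cKO difference was called in the fit of only the 4 cKO libraries (adjusted p = 0.0112), and also without WT FO replicate 2 (adjusted p = 0.0499), WT MZ replicate 1 (adjusted p = 0.0275) or WT MZ replicate 2 (adjusted p = 0.0272); across the alternatives its adjusted p ran from 0.0112 to 0.295.

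The order of the Rgs1 replicates within each group was also the order of the summed immediate early genes, a list of 13 genes of which 12 were tested. In WT that sum was 110254 and 91947 normalized counts for FO and 138081 and 97148 for MZ, and in cKO 121582 and 116665 for FO and 113637 and 145972 for MZ. Nr4a1, a target of antigen receptor signaling on that list, was at 16637 and 6551 for FO and 23203 and 8711 for MZ in WT, and at 19309.9 and 12101 for FO and 11641 and 21513 for MZ in cKO. Between subsets the list did not follow Rgs1: 1 of its 12 genes was called higher in FO (Ier2) and 1 higher in MZ (Egr2) in each genotype, and Nr4a1 did not pass. Plasma cell markers, whose sum is mostly Irf4, had the same replicate order, with 32524 and 14867 for FO and 41216 and 20381 for MZ in WT and 31745 and 28113 for FO and 26784 and 37192 for MZ in cKO. The summed B cell homing receptors had this order too, at 78917 and 66240 for FO and 67356 and 60995 for MZ in WT. In cKO they were at 73131 and 65679 for FO and 53366 and 61337 for MZ. Rgs2 also had it in all 4 groups, so the order was not particular to Rgs1 or to these lists. The part of the immediate early and plasma cell genes in the Rgs1 values was not tested.

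Rgs18 also varied between libraries. Rgs18 acts on Gi and Gq class subunits and is best known from platelets and megakaryocytes. In WT it was at 107 and 282 normalized counts for FO and 248 and 531 for MZ, which overlapped. The cKO values were 195 and 228 in FO and 357 and 358 in MZ, without overlap. FO minus MZ was -1.06 in WT (95% interval -2.16 to 0.04, limma adjusted p = 0.178) and -0.76 in cKO (95% interval -1.85 to 0.34, limma adjusted p = 0.306), and neither was called. The WT difference was -1.76 and was called without WT FO replicate 2 (adjusted p = 0.0329), and the cKO difference was called when only the 4 cKO libraries were fitted (adjusted p = 0.0128). Over these alternatives the adjusted p of Rgs18 ran from 0.0329 to 0.644 in WT and from 0.0128 to 0.600 in cKO.

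Platelet and megakaryocyte markers summed to between 173 and 221 normalized counts in the FO libraries and between 119 and 171 in the MZ libraries, 7 of the 8 listed genes being in the table. This sum was higher in FO by value and the Rgs18 mean higher in MZ, but Rgs18 was not called in either genotype. Of the platelet markers only 2 were tested, and 0 of them were called between FO and MZ. The platelet genes Pf4 and Ppbp were at no more than 8 normalized counts in any library. Macrophage and monocyte markers summed in WT to 599 and 1326 for FO and 390.1 and 1775 for MZ, and in cKO to 1023 and 605 for FO and 1818 and 953 for MZ. In WT the higher sum was in the library with the higher Rgs18 value, in both subsets. In cKO FO the higher sum was in the library with the lower Rgs18 value. In cKO MZ the sums were far apart and the Rgs18 values nearly equal. Granulocyte markers stood out in cKO MZ replicate 1 at 2032 against at most 138 elsewhere, and without that library the same 4 members were called in cKO. T cell markers, 3 of which were tested, ran from 842 to 1525 over the libraries and B cell markers from 203726 to 292787. The part of these cell types in the Rgs18 values was not tested.

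Rgs19 was level across groups. Rgs19, also known as GAIP, acts on the Gi class and associates with membrane trafficking. Over all 8 libraries its normalized counts ran from 2874 to 3636, both of these in WT FO. FO and MZ overlapped in both genotypes. The FO minus MZ difference was 0.06 in WT (95% interval -0.22 to 0.35, limma adjusted p = 0.78) and 0.07 in cKO (95% interval -0.21 to 0.36, limma adjusted p = 0.73), so differences of 1.5-fold lay outside both intervals. Its sign turned under quantile normalization, which gave -0.02 in WT and -0.06 in cKO.

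Rgs16, an RGS protein induced in activated lymphocytes, was near the floor of detection. Its recovered reads numbered 7 and 2 for FO and 1 and 5 for MZ in WT, and 4 and 4 for FO and 1 and 1 for MZ in cKO. FO and MZ overlapped in WT and did not in cKO. With so few reads the gene was not tested, and no fold is given. Rgs16 shares 236 exon bases with an antisense gene, Gm28513, which had a mean of 0.357 normalized counts, and no source used here says whether counting used strand.

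**Figure D2:**
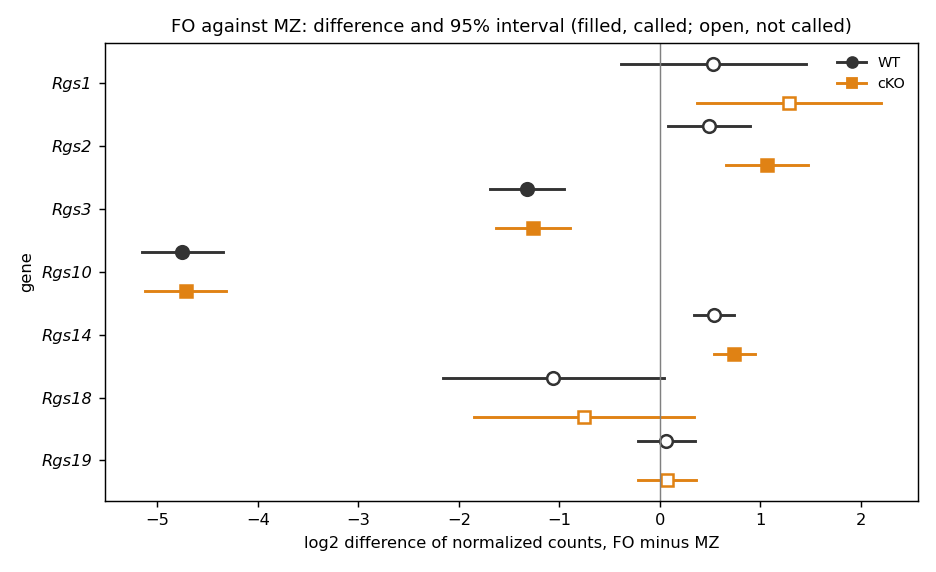
FO minus MZ difference on the log2(normalized count + 1) scale for the 7 tested genes, with 95% intervals from limma, in WT (circles) and cKO (squares); filled symbols were called. Rgs10 stands at -4.75 and -4.72, Rgs3 at -1.32 and -1.26, and the widest intervals belong to Rgs1 and Rgs18.

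Set against all genes, 2 of the 7 tested members were called higher in MZ in WT (Rgs3 and Rgs10) where 7.41% of all tested genes were, and 0 were called higher in FO where 4.62% were. In cKO, 2 were called higher in MZ (Rgs3 and Rgs10) where 8.18% of all genes were, and 2 higher in FO (Rgs2 and Rgs14) where 5.54% were. The unadjusted limma p was under 0.05 for 4 members in WT and 5 in cKO, against 4469 and 4933 of the 14761 genes. The median size of the difference was 0.54 over the members and 0.28 over all tested genes in WT, and 1.07 and 0.31 in cKO, while the median signed difference of the members was 0.06 in WT and 0.07 in cKO. The members thus moved in both directions, and with 7 genes the counts describe these genes only. The WT and cKO comparisons share no library, but both take their spread from the same fit of all 8 libraries. Their p-values are therefore not independent.

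No member was called between genotypes. In FO, 0 of the 7 were called where 0.0677% of all genes were, in MZ 0 where 0.0339% were, and across both subsets 0 where 0.149% were. The interaction gave 0 calls among the members and 0% among all genes. By the unadjusted limma p under 0.05 there were 0 members in FO, 1 in MZ (Rgs14), 1 across both subsets (Rgs3) and 1 for the interaction (Rgs2), against 382, 596, 1230.0 and 94 of all 14761 genes in the same order. The count tests edgeR and DESeq2 on the recovered reads also called 0 members in each of these 4 comparisons.

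Rgs3 was lower in cKO than in WT by value, at -0.25 on the log2 scale in FO, -0.31 in MZ and -0.28 across both subsets (95% interval -0.51 to -0.04, limma unadjusted p = 0.0258, adjusted p = 0.537). Rgs10 was at -0.21 in FO, -0.25 in MZ and -0.23 across both (95% interval -0.48 to 0.02, limma adjusted p = 0.633). In MZ both cKO libraries of Rgs10, Rgs3 and Rgs14 lay below both WT libraries, whereas in FO the genotypes overlapped for these genes. For Rgs2 both cKO FO libraries lay above both WT FO libraries, and in MZ the genotypes overlapped. How many of all tested genes were separated in this way was not counted, so nothing is drawn from it. Rgs14 was at 0.00 in FO (95% interval -0.20 to 0.20) and -0.20 in MZ (95% interval -0.40 to -0.0007, limma unadjusted p = 0.0494, adjusted p = 0.998).

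The intervals for Rgs1 and Rgs18 were wide. For Rgs1 cKO minus WT was 0.09 in FO (95% interval -0.83 to 1.01) and -0.66 in MZ (95% interval -1.58 to 0.26), and for Rgs18 it was 0.28 in FO (95% interval -0.82 to 1.38) and -0.02 in MZ (95% interval -1.12 to 1.07). Differences of 1.5-fold in either direction lay within these intervals, apart from Rgs1 in MZ, where a rise of that size did not. For Rgs2 the cKO minus WT difference was 0.30 in FO and -0.28 in MZ, and for Rgs19 it was -0.06 and -0.07.

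**Figure D3:**
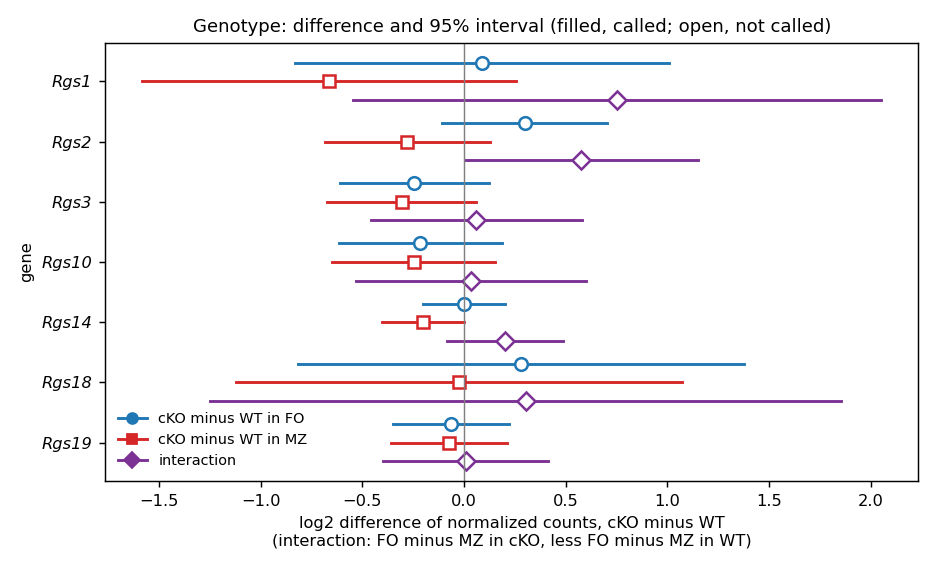
Genotype differences on the log2(normalized count + 1) scale with 95% intervals from limma for the 7 tested genes: cKO minus WT in FO (circles), in MZ (squares), and the interaction (diamonds). All symbols are open since none was called, and the interval of the Rgs2 interaction, from 0.0023 to 1.15, starts just above 0.

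Levels of different genes were compared per kb of annotated exon. In WT FO the order from high to low was Rgs2 at 2442 ± 292 normalized counts per kb (SD, n = 2), Rgs19 at 1460 ± 242, Rgs14 at 800.3 ± 7.08, Rgs1 at 217 ± 75.2, Rgs18 at 95.6 ± 60.9, Rgs10 at 32.4 ± 3.74, Rgs3 at 32.3 ± 1.79 and Rgs16 at 1.90 ± 1.54. Only Rgs10 and Rgs3 overlapped as neighbours there. In WT MZ the order was Rgs2 at 1742 ± 268, Rgs19 at 1388 ± 76.7, Rgs10 at 886 ± 3.12, Rgs14 at 552 ± 37.1, Rgs18 at 192 ± 98.3, Rgs1 at 154 ± 73.0, Rgs3 at 80.7 ± 2.17 and Rgs16 at 1.17 ± 1.08. Rgs18 and Rgs1 overlapped as neighbours. Rgs10 thus lay above Rgs14 in MZ and far below it in FO.

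The cKO kept Rgs2 and Rgs19 at the top by mean. In cKO FO the per kb levels were 2992 ± 46.8 for Rgs2, 1388 ± 99.9 for Rgs19, 801 ± 27.8 for Rgs14, 232 ± 84.2 for Rgs1, 104 ± 11.7 for Rgs18, 28 ± 5.34 for Rgs10, 27.5 ± 5.82 for Rgs3 and 1.82 ± 0.137 for Rgs16, with Rgs10 and Rgs3 overlapping. In cKO MZ they were 1448 ± 337 for Rgs2 and 1320 ± 39.4 for Rgs19, which overlapped, then 746 ± 46.4 for Rgs10, 479 ± 25.7 for Rgs14, 176 ± 0.344 for Rgs18, 92.8 ± 20.3 for Rgs1, 65.4 ± 4.93 for Rgs3 and 0.433 ± 0.0104 for Rgs16. Of the summed per kb level of the 20 Rgs family genes in the table, Rgs10 made up 0.630% of the FO and 17.6% of the MZ sum in WT, against 47.5% and 34.6% for Rgs2. For cKO the shares were 0.496% and 17.1% for Rgs10 and 53.0% and 33.1% for Rgs2.

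Exon length of Rgs1 and Rgs3 is set partly by long or unspliced transcripts in the annotation, with 6947 and 10801 exon bases against 3841 and 3888 in their principal transcripts. Those of Rgs2, Rgs10, Rgs14 and Rgs19 were shorter too, at 3021, 880, 2356 and 1511 bases against 3627, 1711, 4239 and 2230. With the principal transcript as length, chosen after seeing the data, Rgs3 came to 89.7 per kb in WT FO and 76.4 in cKO FO, above Rgs10 at 63.0 and 54.4. In MZ Rgs10 then came to 1723 in WT and 1451 in cKO, between Rgs19 and Rgs14, and Rgs1 to 279 and 168. Rgs3 came to 224 in WT MZ and 182 in cKO MZ, and in the latter Rgs19 at 1947 came above Rgs2 at 1738. The length of Rgs18 did not change, and its mean of 192 in WT MZ then lay below those of Rgs1 and Rgs3. In cKO MZ its mean of 176 lay below that of Rgs3 and above that of Rgs1. The family shares were not recomputed with this length.

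**Figure D4:**
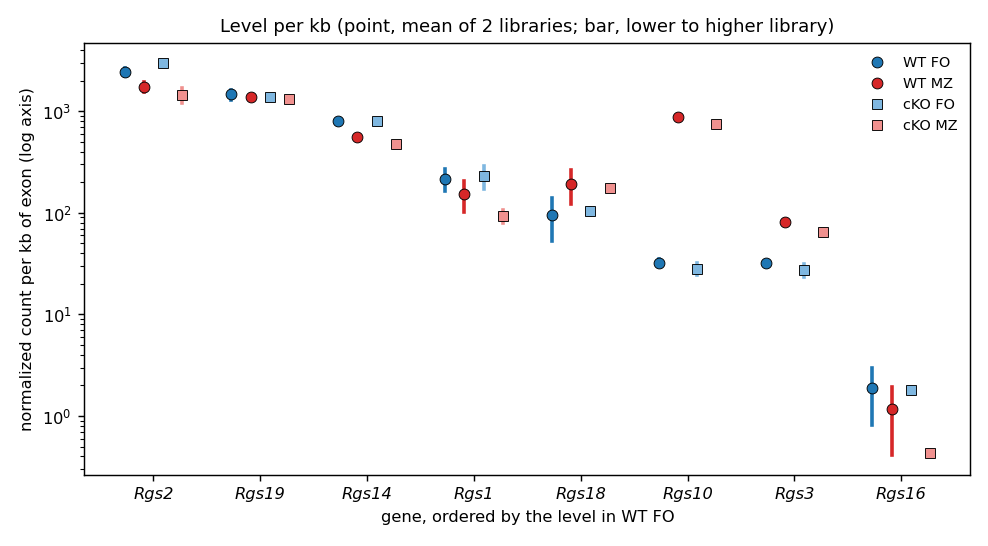
Level per kb of annotated exon on a log axis for the 8 genes, ordered by their level in WT FO; points are means of 2 libraries and bars run from the lower to the higher library. Rgs10 moves from 32.4 in WT FO to 886 in WT MZ, above Rgs14, and Rgs18 lies below Rgs1 in FO and above it by mean in MZ.

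The spread between the 2 libraries of a group was described as the SD on the log2 scale, whose median over all tested genes was, for FO and MZ in turn, 0.17 and 0.14 in WT and 0.13 and 0.10 in cKO. Rgs14 was below that median in every group, at 0.0128, 0.10, 0.05 and 0.08 in the same order. Rgs1 was above it in every group, at 0.51, 0.71, 0.54 and 0.32. Of the 7 tested members Rgs18 had the highest spread in WT, at 0.98 in FO and 0.77 in MZ, and the lowest in cKO MZ, at 0.0028. Rgs10 reached 0.27 in cKO FO, where it rested on 37 and 54 reads, and 0.0051 in WT MZ. With 2 libraries each, these SDs are themselves imprecise.

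In the genome (GRCm38, GENCODE annotation), Rgs2 (chr1:143999338-144004161), Rgs1 (chr1:144242296-144249242) and Rgs18 (chr1:144752683-144775435) lie on the minus strand within 776 kb of chromosome 1 that hold 5 Rgs genes. Rgs2 and Rgs18, at the ends of that cluster, had FO minus MZ values of opposite sign, but Rgs2 was called in cKO only and Rgs18 in neither genotype. Rgs16 (chr1:153740349-153745468, plus strand) is on the same chromosome, beside Rgs8. Rgs19 is at chr2:181688419-181693977 (minus), Rgs3 at chr4:62559847-62704001 (plus), Rgs10 at chr7:128373621-128418758 (minus) and Rgs14 at chr13:55369732-55384687 (plus). Tcea2, on the opposite strand 348 bases from Rgs19, had FO minus MZ values of -0.20 in WT and -0.11 in cKO and was not called in either. Gm15503, on the same strand, overlaps the Rgs10 locus without a shared exon and had a mean of 9.16 normalized counts. Its values were 20.2 and 22.6 in WT MZ and 13.95 and 15.5 in cKO MZ, and at most 1 in any FO library. Gm15503 did not pass the filter and was not tested. Gm11209, antisense within Rgs3, had a mean of 0.374.

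The remaining Rgs family was lowly expressed. Of 15 other family genes, 12 were in the table, 5 passed the filter (Rgs9, Rgs11, Rgs12, Rgs13 and Rgs9bp) and 0 were called between FO and MZ in either genotype. Rgs11 was at 21.95 and 26.6 normalized counts for FO and 51.05 and 38.9 for MZ in WT. In cKO it was at 35.8 and 42.3 for FO and 77.7 and 72.2 for MZ. Without overlap, MZ lay above FO in both genotypes and cKO above WT in both subsets. Rgs11 was called in no comparison. Rgs13, a regulator of germinal center B cells that lies in the chromosome 1 cluster, was at 44.9 and 84.7 normalized counts for FO and 7.71 and 40.8 for MZ in WT, and at 48.1 and 100.7 for FO and 11.96 and 24.8 for MZ in cKO. Its FO minus MZ difference was 1.72 in WT (limma adjusted p = 0.181), with 1.95 in cKO (limma adjusted p = 0.12), and it did not pass. It was called in cKO by DESeq2 (adjusted p = 0.0402), with only the 4 cKO libraries (adjusted p = 0.0292) and without WT MZ replicate 1 (adjusted p = 0.0403) or replicate 2 (adjusted p = 0.0436), and in WT without WT MZ replicate 2 (adjusted p = 0.0350). The germinal center marker list, which holds Rgs13, summed in WT to 4191 and 3642 for FO and 1078 and 1416 for MZ, and in cKO to 4034 and 4219 for FO and 854 and 1159 for MZ. Of its 7 tested genes Bcl6 alone was called, higher in FO in both genotypes. The median FO minus MZ value over the 7 was 0.11 in WT and 0.35 in cKO.

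Among the substrates and partners of RGS proteins, the G alpha subunits had 11 of 15 genes tested. In WT 1 was called higher in FO (Gna15) and 0 higher in MZ, and in cKO 2 were called higher in FO (Gna13 and Gna15) and 0 higher in MZ. Gna15, a Gq class subunit of blood cells, was at 418 and 395 normalized counts for FO and 201 and 228 for MZ in WT. Its difference there was 0.92 (limma adjusted p = 0.0113), and that in cKO was 1.22 (limma adjusted p = 0.00312). Gnai2, the main Gi subunit of lymphocytes, was at 16089.8 and 16557 for FO and 12669 and 12831 for MZ in WT. Its difference, under the 1.5-fold limit in both genotypes, was 0.36 in WT (limma adjusted p = 0.0386), with 0.46 in cKO (limma adjusted p = 0.0131). Gna13, which is known to confine B cells to follicles, was 0.51 in WT and 0.59 in cKO, and lost its cKO call under 6 of the 15 alternatives. Of 10 tested beta and gamma subunits, Gnb4 was called higher in FO in WT and Gng7 higher in MZ in both genotypes, the FO values of Gng7 being at most 3.81 normalized counts.

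Receptor kinases and arrestins, which desensitise the same receptors upstream of the G protein, had 8 genes tested. Grk3 and Grk5 were called higher in MZ in both genotypes, and Arrb1 higher in FO in cKO. Grk3 was at 170 and 191 normalized counts for FO and 2238 and 1904 for MZ in WT, and at 195 and 207 for FO and 1758 and 2397 for MZ in cKO. These FO and MZ values of Grk3 did not overlap, and the difference was -3.51 in WT (limma adjusted p = 3.21e-05), with -3.35 in cKO (limma adjusted p = 4.16e-05). Grk5 stood at -1.33 in WT (limma adjusted p = 0.00226), with -1.57 in cKO (limma adjusted p = 0.001). The more abundant kinases Grk2 and Grk6 were not called, at 0.42 and 0.45 in WT and 0.56 and 0.48 in cKO, each with an adjusted p that passed and a fold that did not.

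Of 8 other G protein modulators tested, 0 were called in either genotype. Of 12 effectors, Arhgef12, a guanine nucleotide exchange factor driven by Gna12 and Gna13 class subunits, was called higher in MZ in both genotypes, at -1.20 in WT and -0.84 in cKO, and Adcy9, an adenylyl cyclase, in WT at -1.30, with -0.59 in cKO. Since the interaction called no gene, neither Adcy9 nor Gnb4 was shown to differ between genotypes. Of 12 homing receptors, 2 were called higher in FO in WT (Ccr7 and S1pr4) and 2 higher in MZ (S1pr1 and S1pr3). In cKO 3 were called higher in FO (Ccr7, Cxcr4 and S1pr4) and the calls in MZ were S1pr1 and S1pr3. Ccr7, the receptor for T zone chemokines, stood at 1.76 in WT and 2.12 in cKO, and S1pr3, a sphingosine 1-phosphate receptor of MZ B cells, at -4.95 and -5.34. S1pr1, which holds MZ cells in place, was at -0.60 and -0.64. Cxcr4 was at 1.03 in WT and 1.57 in cKO, and its cKO call was lost under 6 of the 15 alternatives. The calls of Grk3, Grk5 and S1pr3 in both genotypes, and of Gna15, Gng7 and Ccr7 in cKO and Arhgef12 in WT, were kept under all 15, while those of Gng7, Gnb4, Adcy9, Gna15, S1pr1, S1pr4 and Ccr7 in WT and of Arrb1, Arhgef12, S1pr1 and S1pr4 in cKO were each lost under at least 1.

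**Figure D5:**
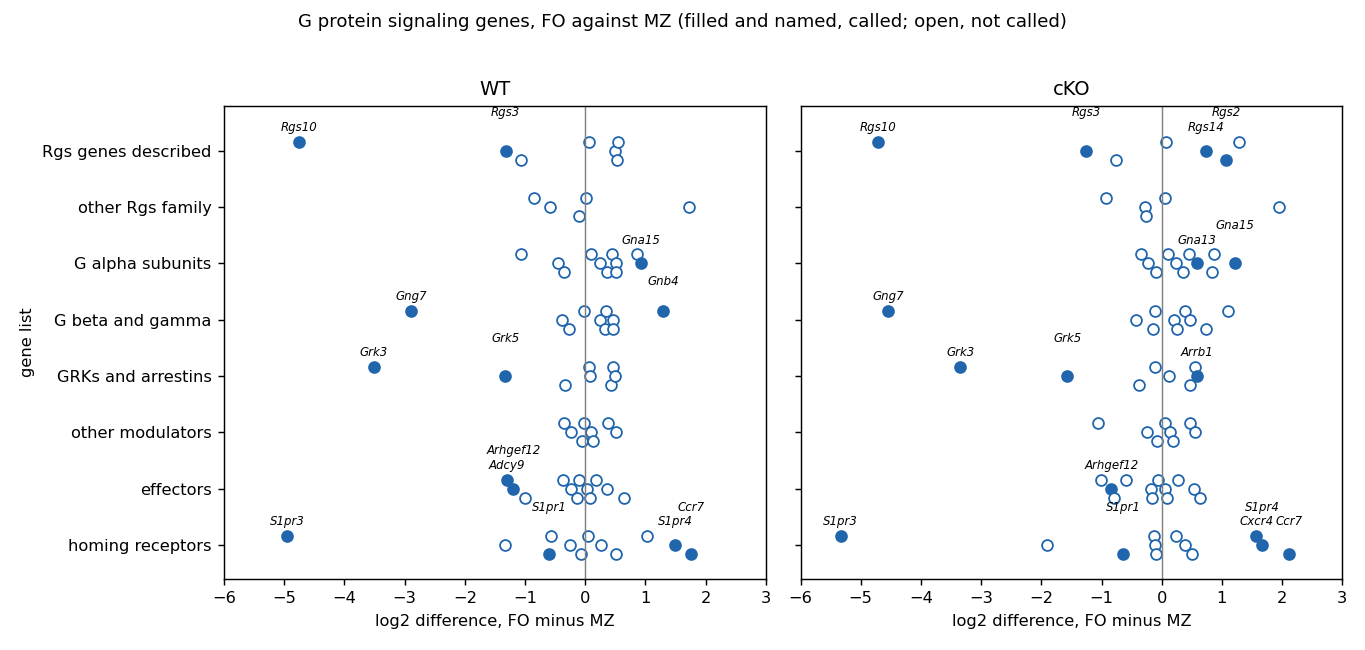
FO minus MZ difference on the log2 scale for each tested gene of the Rgs set and of the lists of G protein signaling genes, in WT (left) and cKO (right); filled and named points were called. Rgs10 lies near S1pr3 at the MZ end in both genotypes, with Grk3 less far out. Gng7, whose FO counts are very low, was also called on the MZ side in both.

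The genes whose pattern over the 8 libraries was most like that of each member were found by the root mean square difference of mean-centred log2 values, as a description. For Rgs10 they were Rap1gap (0.217), which inactivates the small GTPase Rap1, and Plxnd1 (0.256), a semaphorin receptor. Rap1gap was at 65.9 and 109 normalized counts for FO and 2361 and 2089 for MZ in WT, and Plxnd1 at 205 and 267 against 6742 and 5834. For Rgs3 the nearest were Sbf2 (0.103) and Slc29a3 (0.124), for Rgs14 Sp2 (0.0417) and Fmnl1 (0.0418), and for Rgs2 Dbndd2 (0.0882) and Klf8 (0.127). Those nearest to Rgs1 were Saraf (0.158) and Dnajb1 (0.173), to Rgs18 Zfp11 (0.135) and Trpm5 (0.180), and to Rgs19 Zer1 (0.0286) and Rrp8 (0.0333). Small distances were found for genes that vary little over the libraries, such as Rgs19 and Rgs14, and the 8 libraries share their groups.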

How the data were processed

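RNA-seq was made in 8 libraries of sorted FO and MZ B cells, 2 in each of 4 groups, and 8 ATAC-seq samples of the same series were not analysed here. By the study's methods and the submitters' processing notes, single end reads of ribosome-depleted RNA were aligned to mm10 with HISAT2, counted with featureCounts or HTSeq and scaled with DESeq2; versions and strand use are not given in the sources used here. The values the authors deposited are a normalized signal, read counts per gene divided by one DESeq2 size factor per library, for 27928 genes; 256343 blank rows were left out. All values (100%) were whole multiples of what 1 read was worth in their library, to within 0.01 reads, so reads were recovered for the alternative count tests. Groups came from the titles, and no column was left unmapped.

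For each gene log2(normalized count + 1) was fitted with limma 3.58.1 (R 4.3.3, eBayes with trend) over all 8 libraries in 4 groups, for the 14761 genes with a mean of at least 10. Calls needed a p, adjusted by Benjamini-Hochberg over all these genes, no higher than 0.05 and a difference of 1.5-fold or more (no fold for the interaction). Differences on this scale understate the change of low genes. Intervals are 95% and cover the pooled spread between libraries. An exact permutation test of 2 libraries against 2 cannot go below p = 0.333, so p-values rest on the spread that limma pools over genes and groups. Differences across both subsets came from a fit of subset and genotype. Scripts were tested on simulated data. Alternatives were a pseudocount of 0.5, no filter, a block for the replicate number, quantile normalization, fits restricted to the 4 libraries in question, edgeR 4.0.16 (quasi-likelihood) and DESeq2 1.42.0 on recovered reads, at least 2-fold, and leaving out each library. Gene lengths and positions came from GENCODE (GRCm38), in which 27872 of the genes were found, and promoters from RefSeq (GRCm38.p6).

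The named genes were the 8 members, genes of the pathway and marker lists, the 2 genes nearest in pattern to each tested member, and genes within 10 kb of a member. Members, lists and this rule were chosen with earlier results of these data known. Some details of the model and items are not reported here.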

Additional observations from a re-analysis of the deposited data

How the results depend on the processing

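All FO against MZ differences of Rgs1, Rgs2, Rgs3, Rgs10, Rgs14 and Rgs18 kept their direction in both genotypes under every alternative run. No call of a member was lost under those alternatives other than the 2-fold limit, which Rgs14 did not meet in cKO, and 8 values passed the threshold only under an alternative. In WT 2 members were called in all alternatives except 3 without WT FO replicate 2 (Rgs18 added) and 3 without WT MZ replicate 1 (Rgs14 added). In cKO 4 were called, but 6 with only the 4 libraries compared (Rgs1 and Rgs18 added), 5 without WT FO replicate 2, WT MZ replicate 1 or WT MZ replicate 2 (Rgs1 added), and 3 at 2-fold or more. Adjusted p ran from 3.07e-114 to 0.00273 for Rgs10 and from 2.43e-10 to 0.0118 for Rgs3 in WT. In cKO they ran from 4.61e-101 to 0.000915 for Rgs10, from 3.83e-09 to 0.0232 for Rgs3, from 2.61e-07 to 0.0438 for Rgs2 and from 9.55e-09 to 0.0185 for Rgs14. With edgeR and DESeq2, 0 members were called between genotypes or for the interaction.

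With the replicate number as a block, 2 members were called in WT and 5 in cKO, Rgs1 being added at an adjusted p of 0.0224, and no other member's call changed. All genes called were 1973 in WT in place of 1776 and 2262 in cKO in place of 2026. Rgs13 was called under the block in both genotypes (adjusted p = 0.0258 in WT and 0.0141 in cKO). The labels give no more than the number, and it does not show that libraries of the same number belong together: the correlation of their deviations from the group means over genes was 0.591 between WT FO and WT MZ, -0.002 between cKO FO and cKO MZ, and between -0.296 and 0.294 for pairs of genotypes.

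Counts of all genes called moved as follows. With only the 4 libraries compared, WT FO against MZ gave 1014 in place of 1776 and cKO FO against MZ 2339 in place of 2026, and cKO against WT in FO gave 4 in place of 10. At 2-fold or more, cKO FO against MZ gave 1325 in place of 2026, and leaving out one library gave 1073 (without cKO MZ replicate 1) to 2119; it gave 1210.0 without cKO FO replicate 1 and 1348 without cKO MZ replicate 2. For cKO against WT in FO leaving out one library gave 4 (WT FO replicate 1 or cKO MZ replicate 1) to 11, with 5 without cKO FO replicate 1 or cKO MZ replicate 2 and 6 without WT FO replicate 2 or cKO FO replicate 2. DESeq2 gave 24 in FO, 47 in MZ in place of 5, and 78 across both subsets in place of 22. The cause of these shifts was not tested.

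Signs turned only for differences that were not called. Under quantile normalization Rgs19 FO minus MZ was -0.0189 in WT and -0.0583 in cKO, and the interaction was -0.0394 for Rgs19 and -0.0081 for Rgs10; the Rgs19 interaction was -0.0013 by edgeR and -0.0069 by DESeq2. Leaving out one library, Rgs19 FO minus MZ ran from -0.1057 to 0.2335 in WT and from -0.0025 to 0.1445 in cKO. In FO cKO minus WT ran from -0.2911 to 0.4676 for Rgs1, from -0.0345 to 0.0363 for Rgs14, from -0.4148 to 0.9759 for Rgs18 and from -0.2345 to 0.1047 for Rgs19, and in MZ from -0.5694 to 0.5223 for Rgs18. Across both subsets it ran from -0.0966 to 0.1635 for Rgs2 and from -0.1801 to 0.3772 for Rgs18. The interaction ran from -0.1556 to 0.2777 for Rgs3, from -0.158 to 0.2257 for Rgs10, from -0.3913 to 0.9994 for Rgs18 and from -0.1625 to 0.1767 for Rgs19. A group left with 1 library was taken to vary like the others. At the reads found, 37 to 63 for Rgs10 in FO and 1 to 7 for Rgs16, depth limits the size of the first and any comparison of the second.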
